A study of Mus musculus with 3 samples.

Results

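Chromatin bound by the LIM homeodomain protein LMX1B was mapped in mouse limb buds in 2 chromatin immunoprecipitation sequencing (ChIP-seq) samples. The regions described here are the intervals (called peaks) of the first ChIP that overlapped an interval of the second, the validation ChIP, by at least 1 bp and lay inside a gene. Inside a gene means that the midpoint of the interval fell in the body of a RefSeq gene of any biotype, more than 1 kb from the end of any gene. Of the 1287 intervals of the first ChIP, 707 were shared with the validation ChIP, which listed 4501 intervals, and 298 of these lay inside gene bodies. The members were thus chosen on measured values, the positions of the intervals called in both lists. Their number and their overlap are given as a description, and so are their scores, since whether an interval was called rests on its signal.

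Both ChIP samples came from C57BL/6 limb buds at embryonic day 12.5, with fore- and hindlimb buds pooled in 2 runs of 48 limb buds each. Frozen tissue was fixed in 1% formaldehyde for 15 min during thawing, and LMX1B was precipitated from 30 µg of chromatin with 20 µl of the polyclonal antibody BMO8. The first ChIP is named wild-type in its track, and no genotype is given in that of the validation ChIP. The input DNA, from wild-type and mutant chromatin pooled together, is not analysed here. Each ChIP is a single sample without replicates, so no test between samples could be made, and intervals and genes were not treated as replicates. Both samples used the same antibody and whole pooled limb buds, so ventral as well as dorsal cells and all other limb cell types were in the chromatin. Read depth is unknown, because the lists hold no counts.

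LMX1B is a transcription factor of the dorsal limb mesenchyme, where it gives the limb its dorsal character. LIM homeodomain proteins bind AT-rich DNA with an ATTA core and can act from enhancers far from the promoter they control. Such enhancers often lie in the introns of long genes, and the gene that holds an enhancer need not be the gene it controls. A host gene below is therefore only the gene whose body contains the midpoint of an interval. Exons and introns were not resolved.

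Sequence under the intervals could be read only where an interval reached one of the start windows that RefSeq gives for GRCm38.p6, the assembly behind mm10. Each window runs from 250 bases before to 50 bases after an annotated transcript start. Of the 298 intervals, 4 reached 5 such windows, all of them starts inside the body of the host. The part of the window that lies inside the interval and upstream of the start was searched for the homeodomain core at all 5 starts and is shown for 4. The stretch before a second Rsrc1 start, which lies downstream of the first and may be transcribed, was searched and is not shown. Sequences are 5′ to 3′ on the strand of the transcript, from RefSeq, with every match to ATTA on either strand (ATTA or TAAT) in capitals.

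Disp1 internal start, chr1:183147558-183147807, minus strand: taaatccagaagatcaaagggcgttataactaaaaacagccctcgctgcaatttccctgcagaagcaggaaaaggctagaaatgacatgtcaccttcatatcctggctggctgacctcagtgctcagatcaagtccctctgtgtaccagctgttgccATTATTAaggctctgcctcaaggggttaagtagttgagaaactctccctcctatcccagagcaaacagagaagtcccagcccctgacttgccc
Gm40010 start within Bmp7, chr2:172934147-172934214, minus strand: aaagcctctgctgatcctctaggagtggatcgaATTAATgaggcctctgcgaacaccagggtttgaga
Rsrc1 internal start, chr3:66985525-66985661, plus strand: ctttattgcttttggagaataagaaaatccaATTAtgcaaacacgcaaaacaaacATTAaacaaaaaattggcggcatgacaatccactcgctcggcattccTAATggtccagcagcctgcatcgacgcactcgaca
Tcf12 internal start, chr9:71896190-71896346, minus strand: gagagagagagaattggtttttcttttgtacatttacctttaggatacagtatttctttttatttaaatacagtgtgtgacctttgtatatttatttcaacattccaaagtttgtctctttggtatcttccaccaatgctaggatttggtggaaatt

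The stretch in Disp1, which encodes a transporter that releases Hedgehog ligands, held 2 overlapping matches to the core. Gm40010 is a long noncoding RNA gene inside the growth factor gene Bmp7. The stretch before its start, which is internal to Gm40010 as well, held 2 overlapping matches, and that in Rsrc1, an RNA splicing gene, held 3. The stretch in Tcf12, a basic helix-loop-helix transcription factor gene, held none, and neither did the 250 bases before the second Rsrc1 start, of which 72% are G or C. The same stretch of all 32851 start windows held ATTA or TAAT in 54.9% of cases for Disp1, 19.4% for Gm40010, 35.2% for the first Rsrc1 start, 54.9% for the second and 44.6% for Tcf12. The palindrome TAATTA was in none of the 5 stretches. In all, 21 motifs were searched on both strands. For homeodomain proteins these were the core ATTA, the palindrome TAATTA that holds it, the longer site TTAATTA, and the bicoid-type site TAATCC. For their partners they were the HOX and PBX composite TGATTNAT, the MEIS site TGACAG and the PBX site TGATTG. The E-boxes were the common form CAGCTG, the TWIST-type form CATATG and the further form CAGATG. The others were the AP-1 site TGANTCA, the TCF/LEF site CTTTGAT, the SOX site ACAATG, the TEAD site GGAATG, the RUNX site TGTGGT, the FOX site GTAAACA, the GATA site AGATAA, the EBF site CCCNNGGG, the NFI site TTGGCA, the SP/KLF box GGGCGG and the CTCF core AGGGGGC. Apart from the core, the E-box CAGCTG matched once in Disp1 (13.0% of the same stretch of all windows), CTTTGAT once in Disp1 (3.21%), GGAATG once before the first Rsrc1 start (6.79%) and once in Tcf12 (8.48%), and GGGCGG once before the second Rsrc1 start (32.7%). A match describes the letters of a stretch and not a bound site. The intervals around these starts had first-ChIP and validation scores of 18 and 12 in Disp1, 28 and 21 in Bmp7, 22 and 8 in Rsrc1, and 22 and 13 in Tcf12.

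Of all first-ChIP intervals, 54.9% were shared. Inside gene bodies 298 of 488 were shared, or 61.1% (95% Wilson interval 56.7 to 65.3). Within 1 kb of a gene end 108 of 355 were shared, or 30.4% (25.9 to 35.4), and outside genes 301 of 444, or 67.8% (63.3 to 72.0). The share inside gene bodies thus lay near that outside genes and above that at gene ends. Seen from the longer validation list, 297 of its 2073 intervals inside gene bodies were shared, or 14.3%, against 14.9% at gene ends and 17.4% outside genes. The 3 shares were close in that list, with overlapping Wilson intervals for gene bodies and gene ends. The intervals cover counting error only.

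Each interval carries the authors' whole-number score, which has no stated unit and is read only within its own list. In the first ChIP the 298 intervals had scores of 15 to 86, with a median of 22 and a middle range of 19 to 26. In the validation ChIP their partners had scores of 7 to 55, with a median of 16 and a middle range of 13 to 23. The 301 shared intervals outside genes had the same medians, 22 and 16, and the 108 at gene ends had 21.5 and 14. Intervals listed by 1 ChIP alone had lower medians, 18 for the 190 first-ChIP intervals inside gene bodies and 11 for the 1776 validation intervals there. The highest validation score was 55 among the intragenic intervals, 43 among shared intervals outside genes and 39 among those at gene ends.

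**Figure D1:**
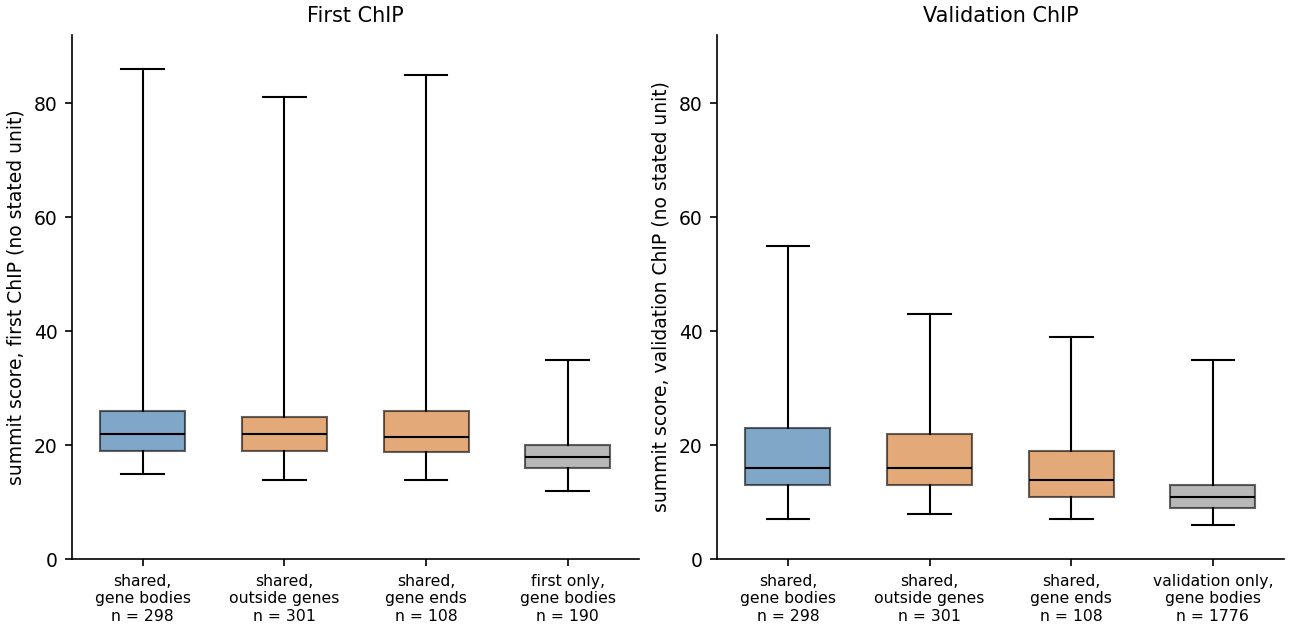
Scores of the authors' interval lists (whole numbers without a stated unit) by place and by sharing, first ChIP on the left and validation ChIP on the right, with boxes from the lower to the upper quartile, a line at the median and whiskers to the lowest and highest score. Shared intervals inside gene bodies had medians of 22 and 16, as did shared intervals outside genes, and intervals inside gene bodies listed by 1 ChIP alone had medians of 18 and 11.

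The paired intervals were close in position as well. The median gap between the paired summits was 48 bp, and in 220 of the 298 pairs (73.8%) it was at most 100 bp. The first-ChIP intervals had a median width of 446.5 bp and their validation partners one of 771 bp. Behind the 298 intervals stood 296 validation intervals, because neighbouring intervals in Col19a1 and in Ccser1 shared a partner. The smallest overlap, 11 bp, was in Frmd4a. Scores of the pairs correlated across intervals with a Pearson r of 0.611 and a Spearman rho of 0.530 (n = 298). These pairs share the antibody and the tissue, and intervals are not independent replicates. The labels do not say whether separate chromatin preparations were used, so sharing may not reflect independent material. Of the 298, 46 were in the top 10% of the first list, 123 in the top 10% of the validation list, and 39 in both.

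**Figure D2:**
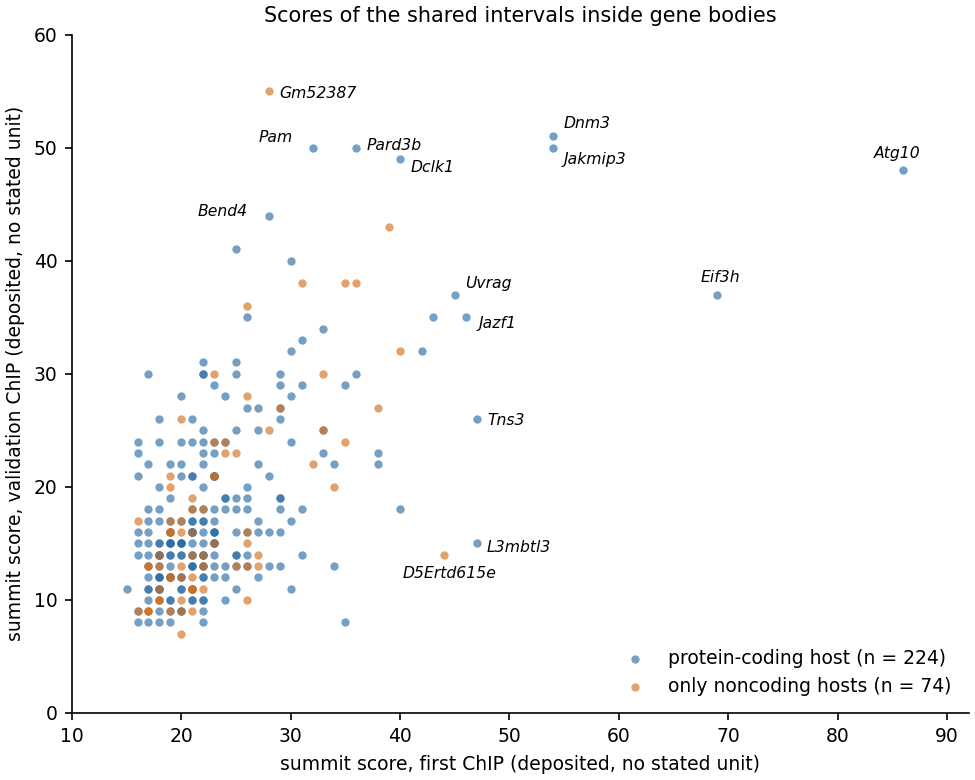
Score in the first ChIP (horizontal axis) against the score in the validation ChIP (vertical axis) for the 298 shared intervals inside gene bodies, 1 point per interval, coloured by whether any host is protein-coding. The interval in Atg10 stands farthest to the right at 86 and 48, and the interval in Gm52387 is the highest at 28 and 55.

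The strongest intragenic intervals lay in genes of varied function. The highest validation score, 55, belonged to an interval at chr19:56086465-56086953 in the long noncoding RNA gene Gm52387, which had a first-ChIP score of only 28. Its neighbour in the same gene, at chr19:56099633-56100712, had 40 in the first ChIP and 32 in the validation ChIP. Both lie beyond Tcf7l2, a nuclear effector of Wnt signalling, at distances of 153 and 167 kb. The 2 lists ordered this pair in opposite ways.

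Intervals in Dnm3 (chr1:161983906-161984959), a dynamin of membrane fission, and in Jakmip3 (chr7:139012808-139013465) both had 54 in the first ChIP, with validation scores of 51 and 50. Pam, an enzyme that amidates peptides, held an interval at chr1:97974853-97975393 with scores of 32 and 50. Pard3b, a relative of the cell polarity protein PAR-3, held one at chr1:61928079-61928927 with 36 and 50. Dclk1, a microtubule-associated kinase, held one at chr3:55496328-55497060 with 40 and 49. The 5 were thus near the top of the validation list, and those in Dnm3 and Jakmip3 near the top of both lists.

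Atg10, an autophagy enzyme, held the intragenic interval with the highest first-ChIP score, 86, at chr13:91187224-91188005, where the validation score was 48. The next among the 298 was in Eif3h (chr15:51798016-51798913), a subunit of a translation initiation factor, with 69 and 37. Among the 10 highest validation scores of the 298 intervals, the remaining ones were 44 in Bend4, 43 in 4930546C10Rik and 41 in Palld, an actin-bundling protein, where the first-ChIP scores were 28, 39 and 25. Among the 10 highest first-ChIP scores of the 298 intervals were also those in Jazf1 with 46 and 35, Uvrag with 45 and 37, and the receptor phosphatase gene Ptprg with 43 and 35. In contrast, among the same 10, L3mbtl3 had 47 in the first list and 15 in the validation list, Tns3 47 and 26, and D5Ertd615e 44 and 14. Rank in one list therefore did not fix the rank in the other.

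The 298 intervals fell in 267 host genes, of which 183 are protein-coding, 83 are long noncoding RNA genes and 1 is a pseudogene. The RefSeq table held 21900 protein-coding and 12731 long noncoding RNA genes in all, so hosts were a small part of both kinds. A protein-coding host held 224 intervals (75.2%, Wilson interval 70.0 to 79.7), and 74 (24.8%) lay in noncoding genes alone. An interval had 2 hosts in 22 cases, where genes overlap. The 74 intervals in noncoding hosts had median scores of 21 in the first ChIP and 16 in the validation ChIP, beside 22 and 16 for the 224 in coding hosts. In the first ChIP the ranges were 16 to 44 against 15 to 86, so scores above 44 were all in coding hosts. In the validation ChIP the ranges overlapped almost fully, 7 to 55 against 8 to 51.

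The hosts were long genes. The protein-coding hosts had a median length of 256 kb, whereas all 21900 protein-coding genes of the table had a median of 17.1 kb. The noncoding hosts had a median of 52.7 kb, beside 8.43 kb for all long noncoding RNA genes. The longest host was Dmd, the dystrophin gene, at 2390 kb, with scores of 22 and 23 for its interval. The shortest was the noncoding LOC115489517 at 3.65 kb, with scores of 34 and 20, and the shortest coding host was Tspan32 at 14.6 kb, with 16 and 15. A longer gene offers more sequence in which a midpoint can fall, and the rule leaves out the kilobase at each gene end.

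In all, 183 of the 21900 protein-coding genes were hosts, or 0.836%. None of 7939 genes of up to 10 kb was a host. The share was 0.0998% (9 of 9016) from 10 to 50 kb, 0.795% (20 of 2516) from 50 to 100 kb and 3.27% (47 of 1439) from 100 to 200 kb. It was 8.13% (62 of 763) from 200 to 500 kb and 19.8% (45 of 227, Wilson interval 15.2 to 25.5) above 500 kb. Of the 2429 coding genes over 100 kb, 154 or 6.34% were hosts, and this percentage is the one set beside each gene group below. It takes no account of differences in length above 100 kb.

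**Figure D3:**
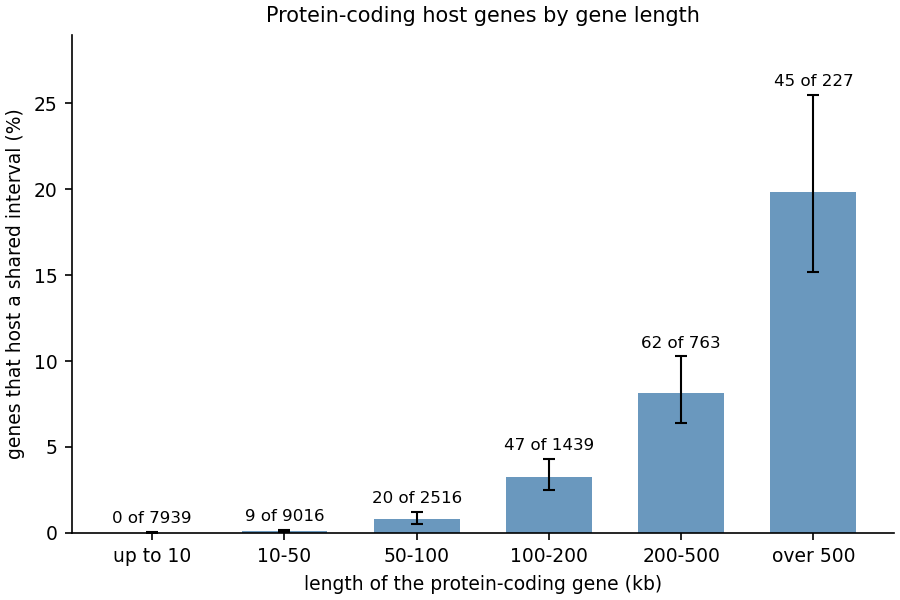
Percentage of protein-coding genes that host at least 1 shared interval (vertical axis, with 95% Wilson intervals) by gene length in kb (horizontal axis, classes). The share was 0 of 7939 genes up to 10 kb and 19.8% above 500 kb.

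Of the 267 hosts, 229 held 1 interval, 31 held 2 and 7 held 3 or more, so 89 intervals (29.9%) shared their host with another. Pard3b and Hdac9 held 5 each, Dnm3, Jazf1, Lrmda and Mecom 4 each, and Lrba 3. All 7 are long, from 301 kb for Jazf1 to 1037 kb for Lrmda. Per 100 kb of gene, Jazf1 held the most of them, 1.33, and Lrmda the fewest, 0.386.

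In Pard3b the 5 intervals ran from 28.9% to 74.2% of the way along the gene, with first-ChIP scores of 36, 16, 38, 22 and 18 and validation scores of 50, 9, 23, 14 and 14 in genome order. Counted from the top of the validation list, the first of them was at 0.0667%, the third at 3.80% and the others at 20.8% or lower down. A further 9 validation intervals in the gene were not shared. In Hdac9, a histone deacetylase gene, the scores were 18, 26, 19, 18 and 19 in the first ChIP and 14, 20, 16, 11 and 15 in the validation ChIP. None was above the upper quartile of the 298 intervals, 26 in the first and 23 in the validation ChIP. Among the 298 this host thus stood out by number and not by score. One of the 5 lay 240 kb from Twist1, a basic helix-loop-helix regulator of limb mesenchyme, and the others lay 622 to 832 kb from it.

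In Dnm3 the first-ChIP scores were 54, 27, 19 and 21 and the validation scores 51, 27, 14 and 13, with the highest of each list at the 3′ end of the gene, 99.6% of the way along it. Dnm3 also held 18 validation intervals that were not shared, the most among these 7 genes. In Jazf1, a zinc finger gene, the scores were 22, 23, 46 and 22 in the first ChIP and 24, 21, 35 and 31 in the validation ChIP, all at or above the medians of 22 and 16. Its intervals lay 518 to 727 kb from Hoxa13, a regulator of the distal limb. On the other side, each lay closer to Creb5, at 300 to 509 kb, which was the nearest gene of the limb transcription factor list below.

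In Lrmda the scores were 25, 23, 19 and 31 in the first ChIP and 19, 29, 14 and 33 in the validation ChIP. They were spread over the gene from 2.82% to 96.1% of its length. In Mecom, a zinc finger transcription factor gene, they were 26, 17, 29 and 21 and 27, 18, 19 and 14. In Lrba they were 22, 34 and 21 and 15, 13 and 16, so its strongest first-ChIP interval had its weakest validation score. The first of the Lrba intervals lay 2.84 kb from Mab21l2, a gene nested in Lrba.

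**Figure D4:**
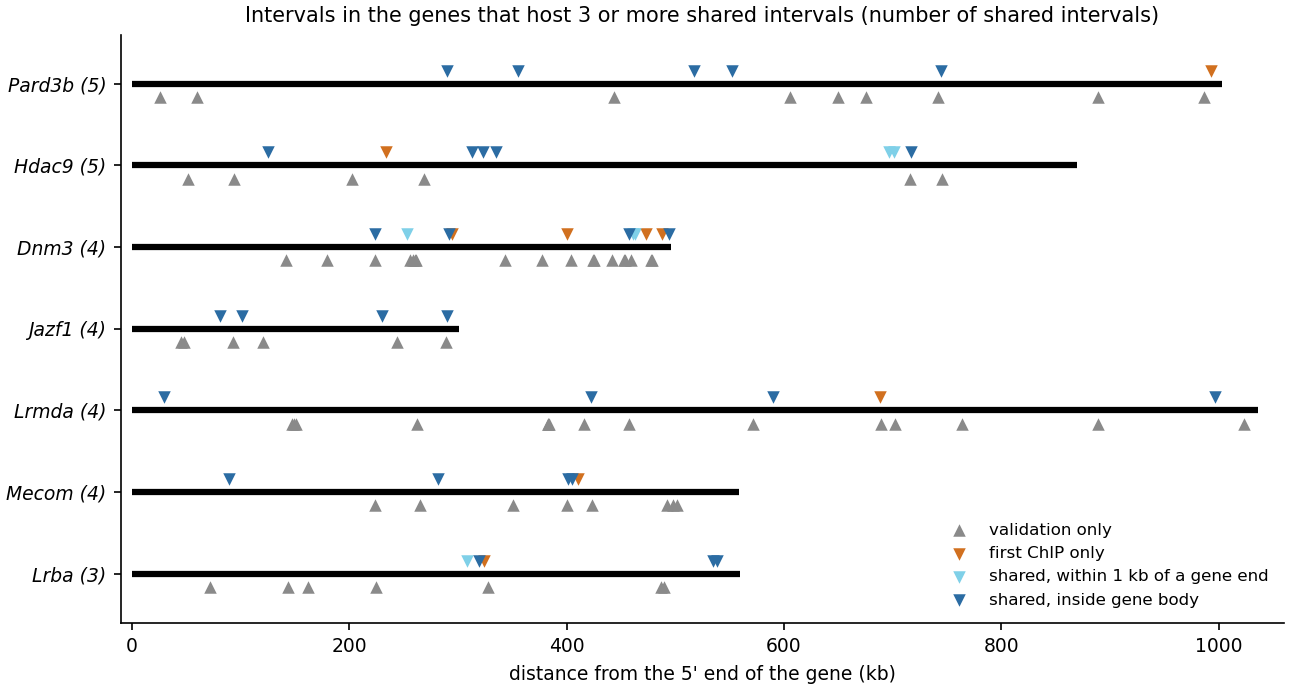
Intervals along the 7 host genes with 3 or more shared intervals, each gene drawn to scale as a line from its 5′ end (horizontal axis, distance in kb). Triangles above the line mark first-ChIP intervals, coloured as shared inside the body, shared but within 1 kb of the end of any gene, or not shared. Grey triangles below mark validation intervals that were not shared. Dnm3 shows 18 unshared validation intervals beside its 4 shared intervals inside the body, and it also holds shared intervals within 1 kb of a gene end.

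Further hosts held pairs. Those with the highest validation scores were Gm52387 (above), Dclk1 with 10 and 49, 4930546C10Rik with 21 and 43, Rsrc1 with 8 and 32, and Zfp608, a zinc finger gene, with 16 and 32. The first-ChIP scores in the same order of intervals were 17 and 40 in Dclk1, 19 and 39 in 4930546C10Rik, 22 and 42 in Rsrc1, and 21 and 30 in Zfp608. In each of these 4 genes the same member of the pair was the higher in both lists. The noncoding genes A930011G23Rik and Gm35314, which overlap, shared a pair with first-ChIP scores of 33 and 22 and validation scores of 30 and 14.

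Most intervals were far from the ends of genes. The nearer gene end was a median of 21.7 kb away, 212 intervals (71.1%) were more than 10 kb from any gene end, and 26 were more than 100 kb from one. The farthest, in the neuronal gene Astn2, was 379 kb from a gene end, with scores of 25 and 11. At the margin of the rule, Gm31147, Gm46660 and Gm41591 held the intervals nearest to a gene end, at 1026, 1030 and 1099 bp. The nearest outside it lay 964 bp from an end at Hoxa9, 953 bp at Plekhf2 and 936 bp at Lima1.

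Strand and annotated starts were known for the coding hosts of 191 intervals. Their midpoints lay a median of 56.9% of the way along the host (95% interval of the median 50.5 to 64.2) and 93.9 kb (77.0 to 121) from its nearest annotated start. First-ChIP intervals inside genes that were not shared lay a median of 48.2% along their host (38.1 to 59.3, n = 128) and 33.3 kb (19.0 to 45.2) from a start. For validation intervals that were not shared, these medians were 49.5% (46.4 to 52.1, n = 1175) and 70.9 kb (64.1 to 77.6). The hosts also differed in length: per interval the median host length was 218 kb for the shared set, 129 kb for unshared first-ChIP intervals and 175 kb for unshared validation intervals. The part of host length in the distances was not tested. Of the 191, only 15 (7.85%) lay within 10 kb of an annotated start of the host and 5 within 2 kb.

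**Figure D5:**
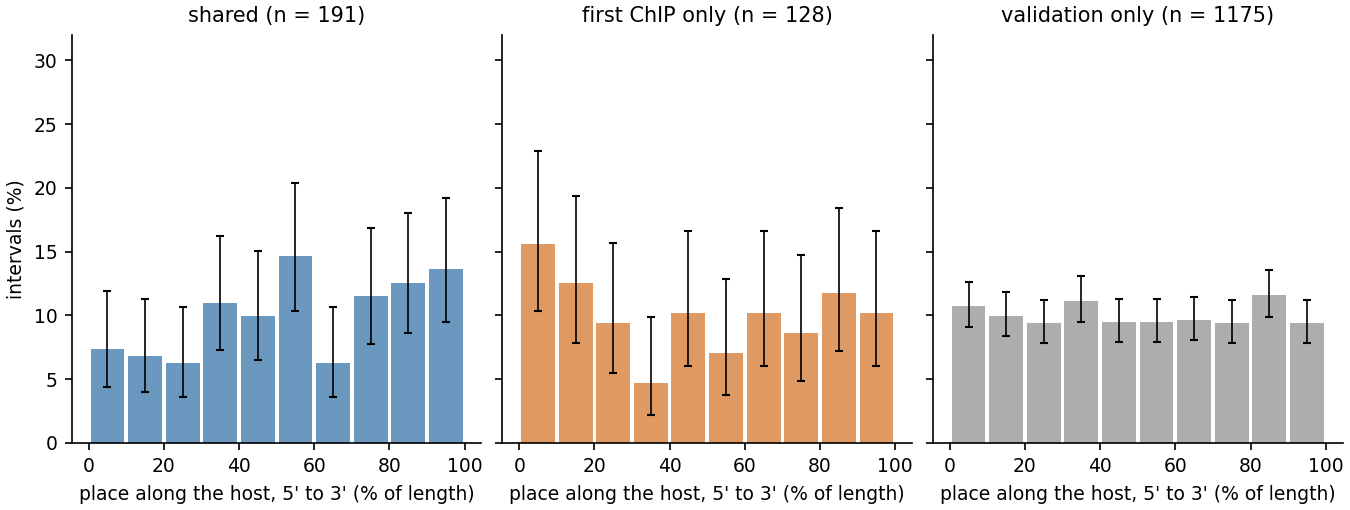
Percentage of intervals in each 10% of the length of the coding host gene (horizontal axis, 5′ to 3′) for shared intervals and for intervals inside genes listed by 1 ChIP alone, with 95% Wilson intervals. The first 10% of the host held 7.33% of the 191 shared, 15.6% of the 128 first-ChIP-only and 10.7% of the 1175 validation-only intervals.

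Transcription factor genes of the limb formed one of the larger groups of hosts. Of 107 genes on a list of limb transcription factors, 16 were hosts, with 20 intervals. Among those over 100 kb the count was 14 of 39, or 35.9%, beside 6.34% of all coding genes of that length. Intervals listed by 1 ChIP alone fell in genes of this list about as often: 20 of the 298 shared intragenic intervals did (6.71%), 12 of 190 first-ChIP-only (6.32%) and 107 of 1776 validation-only intervals (6.02%). Length within this class, and the fact that the list was written with earlier results of these data known, leave this as a description. The 20 intervals had first-ChIP scores of 17 to 33 with a median of 22, and validation scores of 9 to 34 with a median of 15.5. These medians were close to those of all 298 intervals, 22 and 16.

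The highest validation score in the group was in Tshz2, a teashirt zinc finger gene, at 34, with 33 in the first ChIP (chr2:169811577-169812227). Mecom followed with 27 and 26 at the interval with its highest validation score (chr3:30104644-30105483). Its highest first-ChIP score, 29, was at another interval, with 19 in the validation ChIP. Nfia, a nuclear factor I gene, had 24 in both lists, 12.1 kb from a gene end. Zfhx4, a zinc finger homeobox gene, had 19 and 29 in the validation and first ChIP. Tcf7l2 had 17 in both. The other 11 hosts were Bcl11b, Creb5, Ebf3, Foxp1, Glis1, Glis3, Prrx1, Sox5, Tcf12 (with 2 intervals), Trps1 and Zbtb16, with validation scores of 9 to 16. Among these, Prrx1 encodes a homeodomain protein of limb mesenchyme, and its interval had 18 in the first ChIP and 15 in the validation ChIP.

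Lists of genes of the signalling pathways that pattern the limb gave small counts of hosts. Of 63 genes on the Wnt list only Lrp6, a Wnt co-receptor, was a host, with scores of 22 in the first and 16 in the validation ChIP. Of 55 BMP, GDF and TGF-beta genes, the ligand gene Bmp7 had 28 and 21 and the receptor gene Bmpr1b 20 and 14. Of 61 genes of FGF and other receptor tyrosine kinase signalling, the ligand genes Fgf2 and Pdgfc had 19 and 12, and 21 and 13. Of 41 genes on the list written for Hedgehog and Notch signalling 3 were hosts. They were Disp1 (above), the receptor gene Notch2 with intervals of 17 and 14 and of 27 and 12, and Kif26b with 27 and 22. Kif26b is a kinesin family gene that is also counted on the cytoskeleton list below, and its place on this list was not checked against a source. Among genes over 100 kb these 4 lists had 1 of 16, 1 of 13, 1 of 24 and 3 of 9 hosts, beside 6.34% of all such coding genes. With genes of every length the shares were 1.59%, 3.64%, 3.28% and 7.32%, beside 0.836% of all coding genes, without account of length.

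Further hosts act in the cytoskeleton or at the cell surface. Of 115 genes on the cytoskeleton, polarity and small GTPase list 13 were hosts, and 13 of the 86 over 100 kb (15.1%). They include Dnm3, Pard3b, Jakmip3, Dclk1 and Palld, whose intervals were among the strongest. Of 89 adhesion genes 9 were hosts, all among the 57 over 100 kb (15.8%). The highest validation scores there were 23 in Cdh22 and 18 in Cdh6, both cadherins, and 22 in Negr1 and 21 in Ntm, both cell adhesion molecules of the immunoglobulin family. Their first-ChIP scores were 23, 29, 38 and 23. Both lists exceeded the 6.34% of all coding genes over 100 kb in this plain count, which is not matched for length above 100 kb. Among all coding genes the share rose from 3.27% at 100 to 200 kb to 19.8% above 500 kb. The part of length in these counts was not tested.

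Axon guidance and Eph-ephrin genes gave 4 hosts of 83 (4 of 42 over 100 kb, 9.52%), and only 1 when 50% overlap of both intervals was required. Slit3, a secreted guidance cue, held 2 intervals with first-ChIP scores of 22 and 18 and validation scores of 10 and 24. The receptor genes Unc5c and Robo2 had 19 and 19, and 19 and 17, and the semaphorin gene Sema3d had 22 and 18. Of 105 extracellular matrix genes 3 were hosts, the collagen gene Col19a1, the fibrillin gene Fbn2 and the laminin gene Lama2. Col19a1 held 2 intervals, 17 and 20 in the first ChIP, over a single validation interval of 22. Lama2 had 23 and 21, and Fbn2 had 22 and 13. Of 72 genes on the list written for matrix proteases and their inhibitors 3 were hosts. They were Pam, the peptide-amidating enzyme named above, Adamtsl3 with 27 and 16 and with 23 and 14, and Adamtsl1 with 18 and 15. A place on this list does not make a host a matrix protease gene. The matrix list had 3 of 38 hosts over 100 kb (7.89%) and the protease list 3 of 31 (9.68%), both near the background.

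Chromatin and transcription cofactors gave 9 hosts of 115 genes, all among the 83 over 100 kb (10.8%). The highest validation scores were 40 in Celf4, an RNA-binding protein gene, 32 in Zfp608, 28 in Auts2, 26 in Tead1, a transcription factor of the Hippo pathway, and 20 in Hdac9. The first-ChIP scores of these intervals were 30, 30, 20, 21 and 26. Ion channel and synaptic genes, which are the longest list with a median of 460 kb, gave 10 hosts of 111 and 10 of 105 over 100 kb (9.52%). Their highest validation scores were 35 in Ptprg, 29 in the glutamate receptor gene Grm7 and 25 in the channel gene Trpm3, with first-ChIP scores of 43, 31 and 27. Expression was not measured, so whether the genes of this list are transcribed in the limb bud is not known from these data.

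Lists of genes of other cell types and tissues (ectoderm, blood, muscle, nerve with Schwann cells, endothelium, adult liver with gut) held no host among 104 genes, and 1 ectoderm gene became a host when gene ends were not left out. Only 11 of the 104 are over 100 kb long, and the median lengths of these lists run from 7.25 to 36.1 kb. Of the 183 coding hosts, 77 were on at least 1 list and 106 on none.

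A further list held 17 genes written down as carriers of limb enhancers of a neighbouring gene in or beside their body. It was compiled from general knowledge, and no source for its entries was checked. Of these, 4 were hosts, Uqcc1, Hdac9, Jazf1 and Fto, and 3 of the 9 over 100 kb, beside 6.34% of all such coding genes. Uqcc1, a mitochondrial assembly factor gene, held an interval at chr2:155862829-155863721 with scores of 20 and 24, 77.7 kb from the joint growth factor gene Gdf5. Gdf5 itself held none. Fto, an RNA demethylase gene, held an interval with scores of 21 and 11, 186 kb from the homeobox gene Irx3. Lmx1b held no shared interval in its body, where no first-ChIP and 2 validation intervals lay.

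Intervals can also lie near a limb transcription factor gene that does not hold them. Counting the host, 62 of the 298 intervals (20.8%, Wilson interval 16.6 to 25.8) had a limb transcription factor gene within 500 kb. The share was 17.3% of the 301 shared intervals outside genes (13.4 to 22.0), which by the rule have no host. It was 14.7% of the 190 first-ChIP-only (10.4 to 20.5) and 12.6% of the 1776 validation-only intervals inside genes (11.1 to 14.2). The Wilson intervals of the shared and first-ChIP-only classes overlapped. Within 100 kb the shares were 9.06% of the 298, 8.95% of the first-ChIP-only and 7.15% of the validation-only intervals inside genes, so the classes inside genes were close there. For 42 of the 298 intervals (14.1%, 10.6 to 18.5) a limb transcription factor that is not the host lay within 500 kb. Without the host, the share was thus below the 17.3% of shared intervals outside genes, with overlapping Wilson intervals.

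The nearest such pair was in Rsrc1, where one interval lay 4.14 kb from Shox2, a homeobox gene of the proximal limb, with scores of 22 and 8, and the other 89.1 kb away, with 42 and 32. In Bcas3, 2 intervals lay 119 and 200 kb from the T-box gene Tbx2, with first-ChIP scores of 30 and 22 and validation scores of 24 and 17. Not far from there, Gm20759 held 2 intervals 99.9 and 101 kb from Tbx4, a T-box gene of the hindlimb, with 20 and 23 in the first ChIP and 12 and 21 in the validation ChIP. In the noncoding gene 2610027F03Rik, an interval with scores of 35 and 24 lay 108 kb from En1, the ventral ectodermal homeobox gene that restricts Lmx1b expression to dorsal mesenchyme. Gmds held 2 intervals 43.1 and 406 kb from the forkhead gene Foxc1, with scores of 20 and 9 and of 21 and 16. Mnat1 held 2 intervals 119 and 156 kb from Six4, with 25 and 14 and with 23 and 16. The pair in 4930546C10Rik lay 432 and 433 kb from Tcf4. Single intervals lay near further limb regulators. The noncoding Gm33597 had 35 and 38 at 129 kb from the zinc finger gene Bnc2, and Smg6 had 25 and 31 at 111 kb from Hic1. The noncoding 4930552P12Rik had 23 and 30 at 79.1 kb from Tcf7l2. In Gm20052 and Gm52178, also noncoding, intervals of 18 and 14 and of 21 and 18 lay 71.0 kb from the homeobox gene Msx1 and 88.7 kb from Osr2, a zinc finger regulator of joints. Distances here were measured between the centre of an interval and the closest edge of the gene, and they do not show which gene an interval acts on.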

How the data were processed

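LMX1B ChIP-seq intervals of 2 samples of mouse limb buds were analysed. The submitters' processing notes name BWA and the build mm10. The BWA version, peak caller and threshold are not given in sources used here. The deposited lists give, per the file headers, tracks of intervals and summits, and the authors attached a whole-number score to each, whose unit is not stated. The 1287 first-ChIP intervals are repeated in the validation sample's deposited file and were counted once. Coordinates are printed from 1.

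Host genes came from a RefSeq table of GRCm38.p6 with 49997 genes, 21900 of them protein-coding. It has no exons; strand and starts came from 32851 RefSeq start windows. Overlaps, lengths, distances and shares with 95% Wilson intervals (counting error only) and order-statistic intervals of medians were computed in Python 3.11.15 (pandas 2.3.3, numpy 2.4.6, scipy 1.17.1), and the functions were tested on simulated data. With 1 sample per list, no p-value was computed.

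Genes named were the hosts of the 10 highest scores of each list, hosts of 2 or more intervals (up to 15), up to 5 hosts per list by validation score, Lmx1b, Uqcc1 and Gdf5, and hosts at the extremes of length and distance. The neighbour genes named beside hosts, the other hosts of the limb transcription factor list and the starts with printed sequence were chosen after their values were seen. Of 1140 entries on 19 gene lists, 1139 matched the table. The members, lists and rules were chosen with earlier results of these data known. The planned motif search of whole intervals needs a genome of the build and was not run.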

Additional observations from a re-analysis of the deposited data

How the results depend on the processing

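Requiring overlap of 50% of both intervals changed the share of first-ChIP intervals inside gene bodies that were shared from 61.1% to 40.8%, and the median first-ChIP score from 22 to 23. Keeping only intervals at or above the median score gave 74.5% and medians of 24 in the first and 18 in the validation ChIP, in place of 22 and 16. Leaving out 5 kb at each gene end gave 65.9%, a median host length of 192 kb in place of 166 kb over all hosts, and a median distance to a gene end of 28.6 kb in place of 21.7 kb. With protein-coding genes alone the last 2 values were 254 and 58.3 kb. Across all settings the number of shared intervals inside genes ran from 199 to 369 and the number of hosts from 188 to 343. The restriction to protein-coding and long noncoding RNA genes was chosen after seeing the data. Among single gene lists, axon guidance hosts fell from 4 to 1 with 50% overlap, and ectoderm hosts rose from 0 to 1 with no exclusion at gene ends. The cause of these changes was not tested beyond the construction of each setting. The planned motif alternatives were not run, since no genome of the build was used here. No paired analysis was possible because each ChIP is 1 sample and the labels share no replicate numbers. The lists hold no reads, so the depth behind each interval, and with it the limit below which a site goes unlisted, is unknown.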
